A study of Mus musculus with 6 samples.

Results

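The circadian clock genes described here are Per1, Per2, Per3, Cry1, Cry2, Nr1d1, Nr1d2, Dbp, Tef and Clock, measured in the prostate of TRAMP mice. They were taken by symbol, as every probe set to which the platform annotation gives exactly 1 gene and that gene among the 10. All 10 genes were found, with 24 of the 45037 probe sets and 10 of the 18193 genes with a single-symbol probe set. In TRAMP mice the probasin promoter, active in prostate epithelium, drives SV40 T antigens, and prostate tumours develop with age. All 6 animals were intact male F1 offspring of C57BL/6 TRAMP and FvB mice, so the vehicle mice carried the transgene too. From 6 to 10 weeks of age, 3 mice were given OSU-CG5 by mouth at 100 mg/kg per day for 4 weeks and 3 were given vehicle. The source names of all 3 treated arrays give OSU-CG5 and their titles CG5, while the free-text descriptions of replicates 2 and 3 name OSU-CG6 and OSU-CG7; the source names were followed here. OSU-CG5 is known here only by that code name and has been described as a mimetic of energy restriction. Mice were killed about 2 to 4 h after their final dose, and RNA of the dissected dorsal and lateral lobes went on 1 Affymetrix array per mouse. The time of day at dosing and at collection is not given in the sources used here.

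In the mammalian clock, the CLOCK and BMAL1 proteins bind E-boxes and switch on the Per and Cry genes, whose products then inhibit CLOCK and BMAL1. A second loop runs through the nuclear receptors NR1D1 and NR1D2 (REV-ERB alpha and beta), which repress Bmal1 at ROR elements. DBP and TEF, relatives in the PAR bZIP family, bind D-boxes and carry the rhythm to output genes. Most peripheral tissues run this clock, and the levels of most of these transcripts change with the time of day.

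With OSU-CG5, Per3 read higher on its brighter probe sets, Dbp read lower on both of its probe sets, and Cry1, Cry2 and Nr1d1 differed by 0.03, 0.03 and 0.01 on the log2 scale. The brightest probe sets of Nr1d2 and Clock also read higher than in vehicle, and those of Per1 and Tef did not stand apart. None of the 24 clock probe sets passed the test over all probe sets: limma with Benjamini-Hochberg adjustment gave 0 calls at an adjusted p under 0.05, as it did for 0% of all 45037, and the smallest adjusted p among clock probe sets was 0.119, for Per3. At an unadjusted p under 0.05, 7 of the 24 were higher with OSU-CG5, against 9.63% of all probe sets, and 4 were lower, against 6.8%. The 3 treated arrays lay wholly above the 3 vehicle arrays for 7 clock probe sets, against 11.7% of all, and wholly below for 3, against 11.9%. The median log2 difference was 0.12 over the 24 probe sets and -0.06 over all probe sets. All values below are log2 RMA signals, SD is taken over the 3 mice of a group, and SE is limma's moderated standard error of a difference. In dissected tissue, fewer cells of a type and less RNA per cell cannot be told apart.

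**Figure D1:**
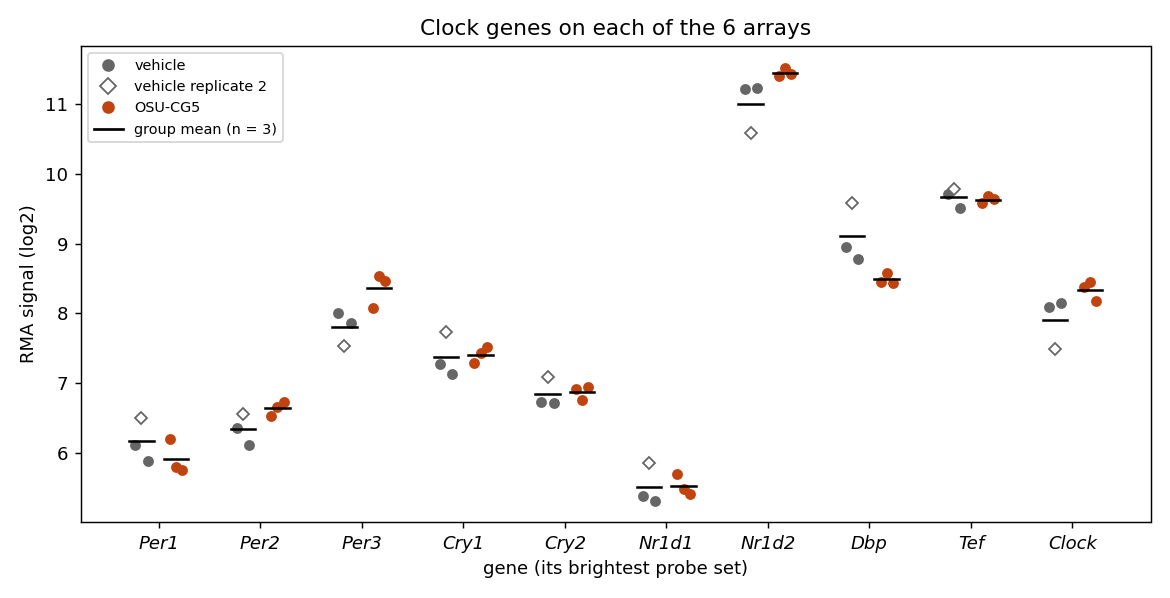
Log2 RMA signal of each clock gene's brightest probe set on the 6 arrays, with group means as bars and vehicle replicate 2 as an open diamond. The groups are separate for Per3, Nr1d2, Dbp and Clock, and vehicle replicate 2 is the highest or lowest of the 6 arrays for every gene but Per2.

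The arrays were not equally alike, and this bears on every value below. Vehicle replicate 2 correlated with the others at 0.966 to 0.981 over all probe sets, while every other pair lay between 0.987 and 0.995. The transcripts of the seminal vesicle, a gland beside the prostate, had a mean log2 signal of 7.91 on that array, 3.90 to 5.08 on the other vehicle arrays and 3.56 to 4.55 on the treated ones, over 6 of 7 markers listed. Prostate secretory transcripts were abundant throughout: Pbsn, which encodes probasin, read 13.28 to 13.91 on the 6 arrays, and the mean of 6 luminal markers ran from 12.27 to 12.42 in vehicle and from 12.38 to 12.72 with OSU-CG5. On vehicle replicate 2 Pbsn was lowest, and Msmb read 12.26 against 13.27 to 13.34 on the other arrays. The luminal marker Krt18 was highest there. Vehicle replicate 2 was the highest or lowest of the 6 arrays for 21 of the 24 clock probe sets (87.5%), against 53.3% of all probe sets. It was lowest for 10, all of which had a positive treatment difference, and highest for 11, of which 7 had a negative one. A low value on 1 vehicle array raises the difference by arithmetic and a high one lowers it, so these signs are not read as a result about clock genes. The median SD of the clock probe sets was 0.29 in vehicle and 0.13 with OSU-CG5, against 0.18 and 0.13 over all probe sets. Without vehicle replicate 2, 5 clock probe sets were higher at an unadjusted p under 0.05 (9.62% of all) and 2 were lower (5.55% of all). The part of the seminal vesicle signal in the clock values was not tested.

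**Figure D2:**
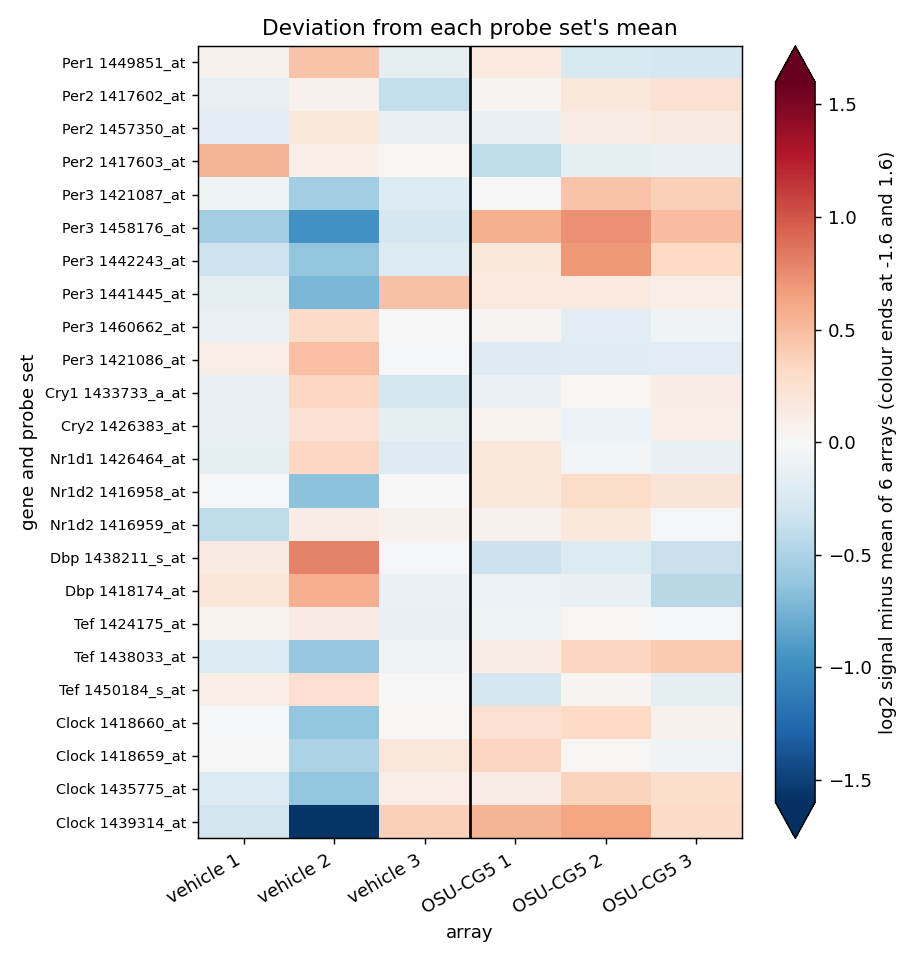
Deviation of each clock probe set from its mean over the 6 arrays (log2, colour), with vehicle arrays left of the line and OSU-CG5 arrays right of it. The column of vehicle replicate 2 holds many of the strongest colours, blue for all Clock probe sets and the 4 brighter Per3 ones and red for both Dbp probe sets.

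The Per genes encode the PERIOD proteins of the inhibitory arm. Per3 is the member with the largest treatment difference, and its promoter is shown because it was the only clock promoter window with a D-box, the element that DBP and TEF bind. RefSeq promoter windows (GRCm38.p6, 250 bases before to 50 bases after an annotated start) were at hand for 9 of the 10 genes, 13 windows in all. Per2 had no window, so its promoter was not searched. The D-box TTATGTAA, searched on both strands, occurred in 0.938% of 32851 such windows and at least 2 times in 0.0213%. Per3 held 2 copies on the gene's strand, beginning 205 and 158 bases before the start. The 250 bases before the Per3 start (chr4:151044666-151044915, minus strand, D-boxes in capitals) read
Per3: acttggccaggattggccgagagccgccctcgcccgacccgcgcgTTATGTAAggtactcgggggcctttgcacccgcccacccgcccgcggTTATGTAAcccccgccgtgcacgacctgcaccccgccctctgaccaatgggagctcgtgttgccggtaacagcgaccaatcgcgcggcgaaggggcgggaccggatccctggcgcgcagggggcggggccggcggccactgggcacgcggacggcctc

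Per3 had 6 probe sets, more than any other clock gene. The brightest, 1421087_at, read 8.01, 7.53 and 7.86 in vehicle and 8.08, 8.54 and 8.46 with OSU-CG5. All 3 treated arrays lay above all vehicle arrays, by 0.56 on average (SE 0.17; limma adjusted p = 0.206), and the lowest treated array was close to the highest vehicle array. The probe set 1458176_at read 6.46, 6.05 and 6.74 in vehicle and 7.58, 7.75 and 7.51 with OSU-CG5, with a wide gap between the groups. Its difference of 1.20 (SE 0.18; 95% interval 0.78 to 1.61), or 2.29-fold, was the largest of the 24. The probe set 1442243_at read 6.57, 6.27 and 6.68 in vehicle and 7.06, 7.60 and 7.22 with OSU-CG5, again without overlap, and differed by 0.79 (SE 0.17; limma adjusted p = 0.151). Without vehicle replicate 2 these 3 differences were 0.42, 1.01 and 0.67, and the second passed the adjusted threshold (limma adjusted p = 0.0259), among 400 probe sets that did so (0.888%).

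The other 3 Per3 probe sets did not follow. 1441445_at read 5.85, 5.27 and 6.48 in vehicle and 6.17, 6.17 and 6.12 with OSU-CG5, so that the treated arrays lay within the vehicle range, and its difference of 0.28 was -0.01 without vehicle replicate 2. The dim 1460662_at read 4.31 to 4.73 in vehicle and 4.24 to 4.47 with OSU-CG5. The dimmest, 1421086_at, read 4.31, 4.69 and 4.17 in vehicle and 4.00, 4.01 and 4.04 with OSU-CG5, lower on every treated array by an average of 0.38 (SE 0.15), and its difference was -0.23 without vehicle replicate 2. Brightest and dimmest Per3 probe sets thus differed in opposite directions. Their gap within an array was 3.70, 2.84 and 3.69 in vehicle and 4.08, 4.53 and 4.42 with OSU-CG5, a difference of 0.94 (SE 0.24; 95% interval 0.39 to 1.48) that did not pass limma over the 9010 genes with 2 or more probe sets (adjusted p = 0.196, and 0% of those genes passed).

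**Figure D3:**
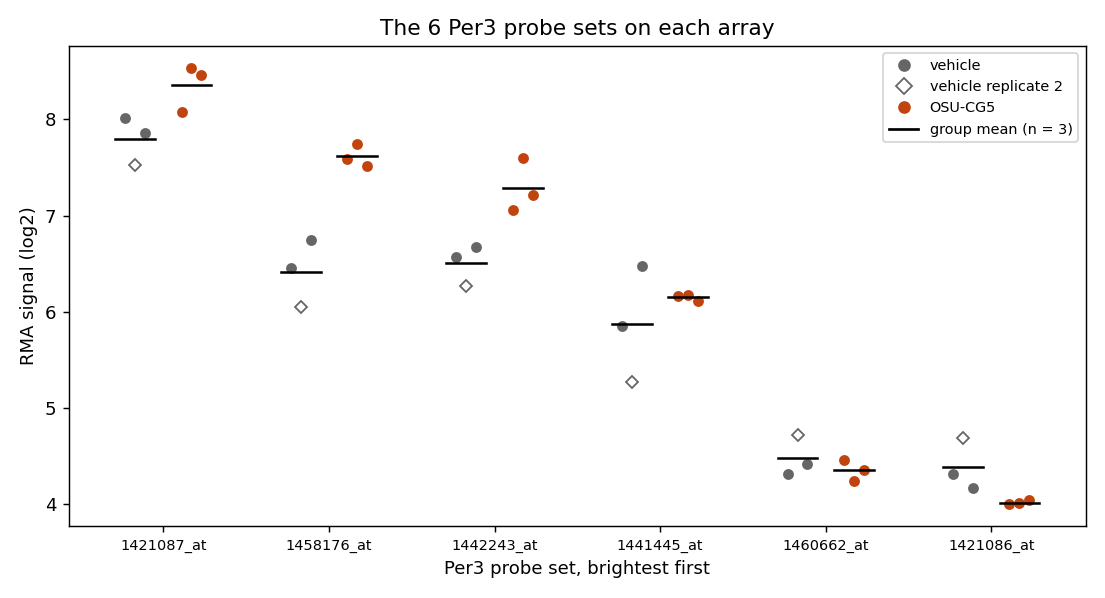
Log2 RMA signal of the 6 Per3 probe sets on each array, brightest at left, with group means as bars and vehicle replicate 2 as an open diamond. The 3 brightest are higher on every OSU-CG5 array than on any vehicle array, and the dimmest is lower on every OSU-CG5 array.

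Per2, a PERIOD protein whose loss shortens or abolishes behavioural rhythms in mice, split in the same way. Its brightest probe set, 1417602_at, read 6.35, 6.55 and 6.11 in vehicle and 6.53, 6.65 and 6.73 with OSU-CG5. The groups met at vehicle replicate 2, and the difference was 0.30 (SE 0.14; limma adjusted p = 0.338). The dimmest, 1417603_at, read 5.78, 5.33 and 5.26 in vehicle and 4.82, 5.08 and 5.11 with OSU-CG5, lower on every treated array, by an average of 0.45 (SE 0.17). The remaining one, 1457350_at, differed by 0.09 (SE 0.14). The gap between brightest and dimmest was 0.58, 1.22 and 0.85 in vehicle and 1.70, 1.57 and 1.62 with OSU-CG5, with no overlap. That difference was 0.75 (SE 0.19; limma adjusted p = 0.188) and 0.92 without vehicle replicate 2. At an unadjusted p under 0.05 such a difference held for Per2 and Per3 among the 6 clock genes with 2 or more probe sets, against 12.9% of the 9010 genes. Both depended on the dim probe set used. Against the second brightest probe set the Per2 difference was 0.20 (limma unadjusted p = 0.182) and the Per3 difference turned to -0.64 (limma unadjusted p = 0.0061). With only probe sets of mean log2 6 or more, the Per3 difference was 0.28 (limma unadjusted p = 0.302), and Per2 had no second probe set left.

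Per1 is induced acutely by light, glucocorticoids and cAMP signalling in many tissues. Its only probe set, 1449851_at, read 6.11, 6.49 and 5.88 in vehicle and 6.19, 5.80 and 5.76 with OSU-CG5. The groups overlapped, with a difference of -0.25 (SE 0.19; 95% interval -0.68 to 0.18), and of -0.08 without vehicle replicate 2.

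The E-box CACGTG occurred in 7.15% of all promoter windows. Among the clock genes it was in 1 of the 2 Per1 windows, the Cry1 window and the 2 Tef windows. Parts of these windows are shown because Per1, Cry1 and Tef were the only clock genes searched with an E-box in a window. Each is given as 60 bases with the E-box in capitals, from chr11:69098756-69098815 (plus strand) for Per1, chr10:85185082-85185141 (minus strand) for Cry1 and chr15:81802519-81802578 (plus strand) for 1 of the 2 Tef starts.
Per1: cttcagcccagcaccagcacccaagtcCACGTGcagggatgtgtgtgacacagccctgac
Cry1: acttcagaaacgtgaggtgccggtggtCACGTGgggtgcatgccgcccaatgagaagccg
Tef: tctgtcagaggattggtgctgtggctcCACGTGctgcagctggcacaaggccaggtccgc
No clock window held the cAMP response element TGACGTCA or the D-box variants TTACGTAA and TTATATAA, which occurred in 1.79%, 0.119% and 0.554% of all windows. The core of the ROR element, TAGGTCA, was found in 2.61% of all windows and in no clock window. The search covered both strands, and the E-box, the cAMP response element and the D-box variants read the same on either strand. A match here is a match of letters, not a measured binding site, and no match says only that the letters are not in these windows.

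The cryptochromes Cry1 and Cry2 are the main repressors of CLOCK and BMAL1. Cry1 read 7.27, 7.73 and 7.13 in vehicle and 7.29, 7.42 and 7.51 with OSU-CG5, so that the treated arrays lay inside the vehicle range. Its difference was 0.03 (SE 0.17), with a 95% interval of -0.36 to 0.42. Cry2 read 6.72, 7.08 and 6.71 in vehicle and 6.91, 6.76 and 6.95 with OSU-CG5, also inside the vehicle range. Its difference was 0.03 (SE 0.14; 95% interval -0.29 to 0.35). In both genes vehicle replicate 2 was the highest array. Without it, every treated array was above both remaining vehicle arrays, as for 16.7% of all probe sets, and the differences were 0.21 and 0.16 (SE 0.13 each), neither of which passed (limma adjusted p = 0.488 and 0.597).

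The REV-ERB receptors form the second loop. Nr1d1, whose only probe set 1426464_at was dim, read 5.37, 5.85 and 5.31 in vehicle and 5.70, 5.48 and 5.40 with OSU-CG5. The groups overlapped, with a difference of 0.01 (SE 0.17; 95% interval -0.37 to 0.40), and of 0.18 without vehicle replicate 2. Nr1d2 gave a bright probe set, 1416958_at, which read 11.22, 10.58 and 11.23 in vehicle and 11.40, 11.53 and 11.44 with OSU-CG5. Every treated array was higher than every vehicle array, and the difference of 0.45 (SE 0.18; limma adjusted p = 0.281) was 0.23 (SE 0.12) without vehicle replicate 2, the lowest array. The other Nr1d2 probe set read 3.75 to 4.27 in vehicle and 4.11 to 4.32 with OSU-CG5, near the low end of the scale. Its difference of 0.14 had the same direction, and the brighter-minus-dimmer difference was 0.31 (SE 0.26; limma adjusted p = 0.651).

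DBP is an activator of D-box genes, and Dbp is among the transcripts with the widest daily swing in many tissues. Its brighter probe set, 1438211_s_at, read 8.95, 9.59 and 8.78 in vehicle and 8.45, 8.58 and 8.44 with OSU-CG5. All treated arrays were lower than all vehicle arrays, by 0.62 on average (SE 0.20; 95% interval -1.08 to -0.15; limma adjusted p = 0.220), and vehicle replicate 2 was the highest. Without it the difference was -0.37 (SE 0.13). The dimmer probe set, 1418174_at, read 5.80, 6.19 and 5.50 in vehicle and 5.51, 5.49 and 5.16 with OSU-CG5, with vehicle replicate 3 inside the treated range. Its difference was -0.44 (SE 0.19), and -0.26 without vehicle replicate 2. Both probe sets thus differed in the same direction, and their brighter-minus-dimmer difference was -0.18 (SE 0.16; limma adjusted p = 0.685). An identifier ending in _s_at marks a probe set that can bind more than 1 transcript.

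Tef, the relative of Dbp with a shallower daily rhythm, gave 3 probe sets that disagreed. The brightest, 1424175_at, read 9.71, 9.79 and 9.52 in vehicle and 9.58, 9.68 and 9.63 with OSU-CG5, inside the vehicle range, with a difference of -0.04 (SE 0.12; 95% interval -0.31 to 0.24). 1438033_at read 5.98, 5.61 and 6.15 in vehicle and 6.34, 6.56 and 6.63 with OSU-CG5. It was higher on all treated arrays, by 0.59 (SE 0.16; limma adjusted p = 0.183), and by 0.44 without vehicle replicate 2. The dimmest, 1450184_s_at, read 5.02 to 5.29 in vehicle and 4.74 to 5.06 with OSU-CG5. The brighter-minus-dimmer difference was 0.22 (SE 0.15, limma adjusted p = 0.577). Against the second brightest instead of the dimmest probe set it turned to -0.63 (limma adjusted p = 0.308).

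Clock encodes the DNA-binding partner of BMAL1, and its own transcript cycles weakly in most tissues. All 4 of its probe sets read higher with OSU-CG5, by 0.21 to 0.98, and all 4 were lowest in vehicle replicate 2. 1418660_at read 8.09, 7.48 and 8.14 in vehicle and 8.37, 8.45 and 8.18 with OSU-CG5, without overlap, and differed by 0.43 (SE 0.19; limma adjusted p = 0.307). 1435775_at read 6.80, 6.39 and 7.13 in vehicle and 7.14, 7.37 and 7.30 with OSU-CG5, where vehicle replicate 3 lay just below the lowest treated array, and differed by 0.50 (SE 0.19). The dimmest, 1439314_at, had the widest spread of any clock probe set, 6.59, 5.31 and 7.27 in vehicle against 7.42, 7.51 and 7.18 with OSU-CG5, and vehicle replicate 3 lay within the treated range. Its difference of 0.98 had an SE of 0.42 and became 0.44 (SE 0.20) without vehicle replicate 2. The second brightest, 1418659_at, differed by 0.21 (SE 0.19), and by 0.02 without that array, where 1418660_at and 1435775_at differed by 0.22 and 0.31. The brighter-minus-dimmer difference was -0.55 (SE 0.28, limma adjusted p = 0.430), and -0.22 without vehicle replicate 2.

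**Figure D4:**
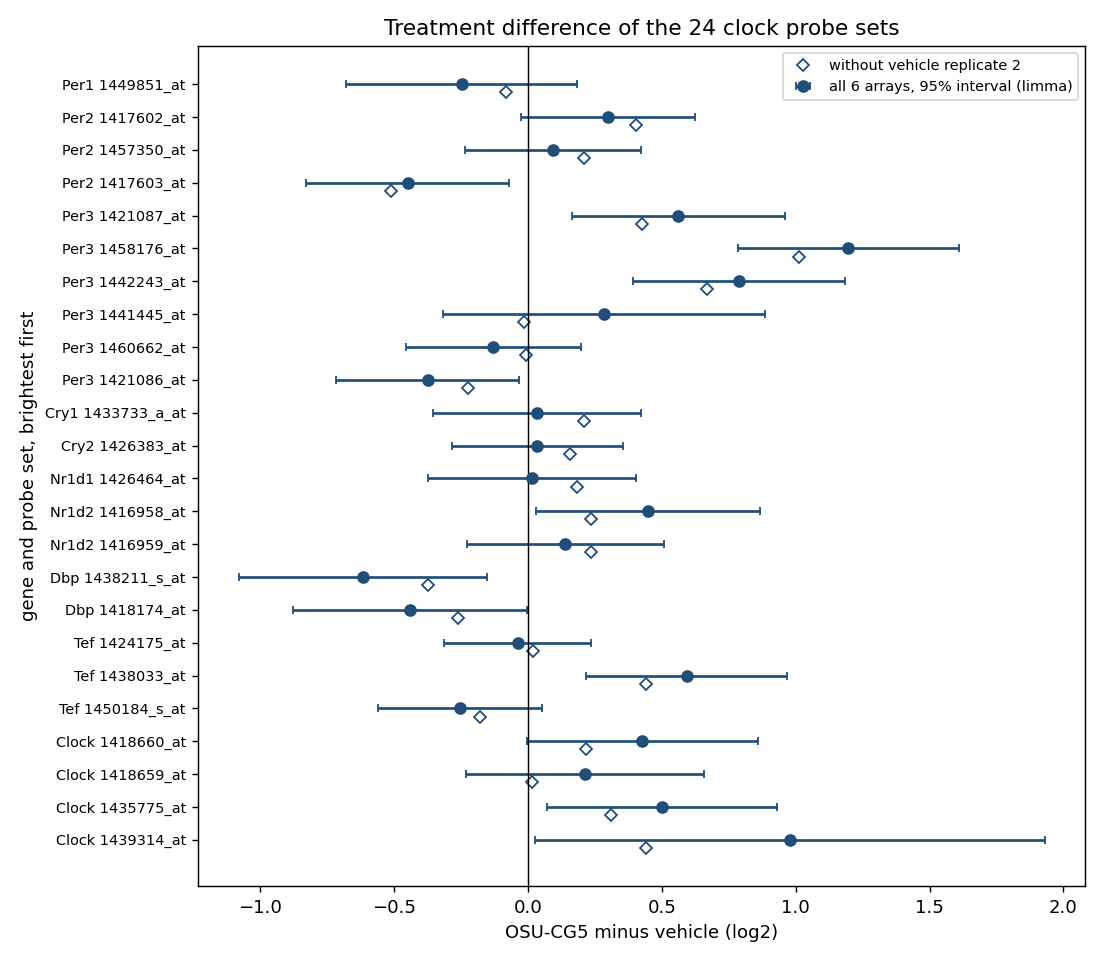
OSU-CG5 minus vehicle for the 24 clock probe sets (log2), as filled points with limma's 95% interval over 6 arrays and open diamonds without vehicle replicate 2. For Per3, Tef and Per2 the probe sets of 1 gene lie on both sides of 0, while both Dbp probe sets lie below 0 and all 4 Clock ones above it.

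The direction differed between probe sets designed from different kinds of sequence, a split made after the values were seen. By the accession prefix in the annotation, 12 clock probe sets were designed from expressed sequence tags and 11 from mRNA records. Of the former 11 were higher with OSU-CG5, with a median difference of 0.36, while over all 17514 single-symbol probe sets of that kind the median was -0.04 and 43.0% were above 0. Of the latter 4 were higher, with a median of -0.13, beside -0.10 and 30.9% above 0 over all 14615. Kind of sequence and signal level went together. A mean of log2 6 or more held for 11 of the 12 from sequence tags and 5 of the 11 from mRNA records. A mean under 5 held for 0 and 3. The 2 splits thus cannot be told apart over these probe sets, although in Per3 the brightest and the dimmest probe set both came from mRNA records. The 4 Clock probe sets all came from sequence tags, as did Per3 1458176_at, 1442243_at and 1441445_at, so the 12 are not 12 separate genes. Vehicle replicate 2 was the highest or lowest array for all 12 probe sets of that kind. Without that array the median difference was 0.21 for the 12 and -0.01 for the 11, so that the second lay near 0, beside -0.02 and -0.06 over all probe sets of each kind. The parts of the design sequence and of the signal level in these differences were not tested.

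The partners of these genes in the loop were described through lists, with 1 probe set per gene, the brightest. Of 11 activators and other loop factors 10 were measured, with a median difference of -0.12 beside -0.09 over all 18193 genes. At an unadjusted p under 0.05, 0 were higher, against 5.4% of genes, and 2 were lower, against 8.43%. Arntl, which encodes BMAL1, read 6.56, 6.79 and 7.19 in vehicle and 6.92, 6.96 and 7.09 with OSU-CG5. Its treated arrays lay inside the vehicle range, with a difference of 0.14 (SE 0.17; 95% interval -0.24 to 0.53). Npas2, a paralogue that can stand in for CLOCK, differed by -0.15 (SE 0.12). Hlf, the remaining PAR bZIP factor, read 7.11, 7.27 and 6.89 in vehicle and 6.79, 6.76 and 6.56 with OSU-CG5. It was lower on every treated array, as Dbp was, by an average of 0.39 (SE 0.14; limma adjusted p = 0.240), and its difference was -0.30 without vehicle replicate 2. Bhlhe41, which encodes the E-box repressor DEC2, differed by -0.38 (SE 0.14). The ROR receptors, activators at the element where REV-ERB proteins repress, differed by 0.45 (SE 0.25) for Rora and 0.29 (SE 0.14) for Rorb, and Rora by 0.14 without vehicle replicate 2.

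Of 14 kinases, ubiquitin ligases and binding partners of the clock proteins 13 were measured, with a median difference of 0.05. Of these, 3 read higher and 1 lower at an unadjusted p under 0.05, against the same 5.4% and 8.43%. Btrc, a ligase subunit that marks phosphorylated PERIOD proteins for degradation, read 5.70, 5.16 and 6.03 in vehicle and 6.43, 6.73 and 6.45 with OSU-CG5. The groups were separate and differed by 0.91 (SE 0.22; limma adjusted p = 0.159), and by 0.67 without vehicle replicate 2. Prkaa2, a catalytic subunit of AMPK, the energy-sensing kinase that can phosphorylate CRY1, differed by 0.50 (SE 0.14; limma adjusted p = 0.183). It read 6.63, 6.51 and 6.52 in vehicle and 6.90, 6.96 and 7.29 with OSU-CG5. Prkaa1, the other catalytic subunit, differed by 0.01 (SE 0.18) on a dim probe set with a mean signal of 4.77. Timeless, which also acts at replication forks, differed by 0.37 (SE 0.11), and Csnk1e, a casein kinase that phosphorylates PERIOD proteins, by -0.44 (SE 0.19). The sister kinase Csnk1d differed by 0.05 (SE 0.17).

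**Figure D5:**
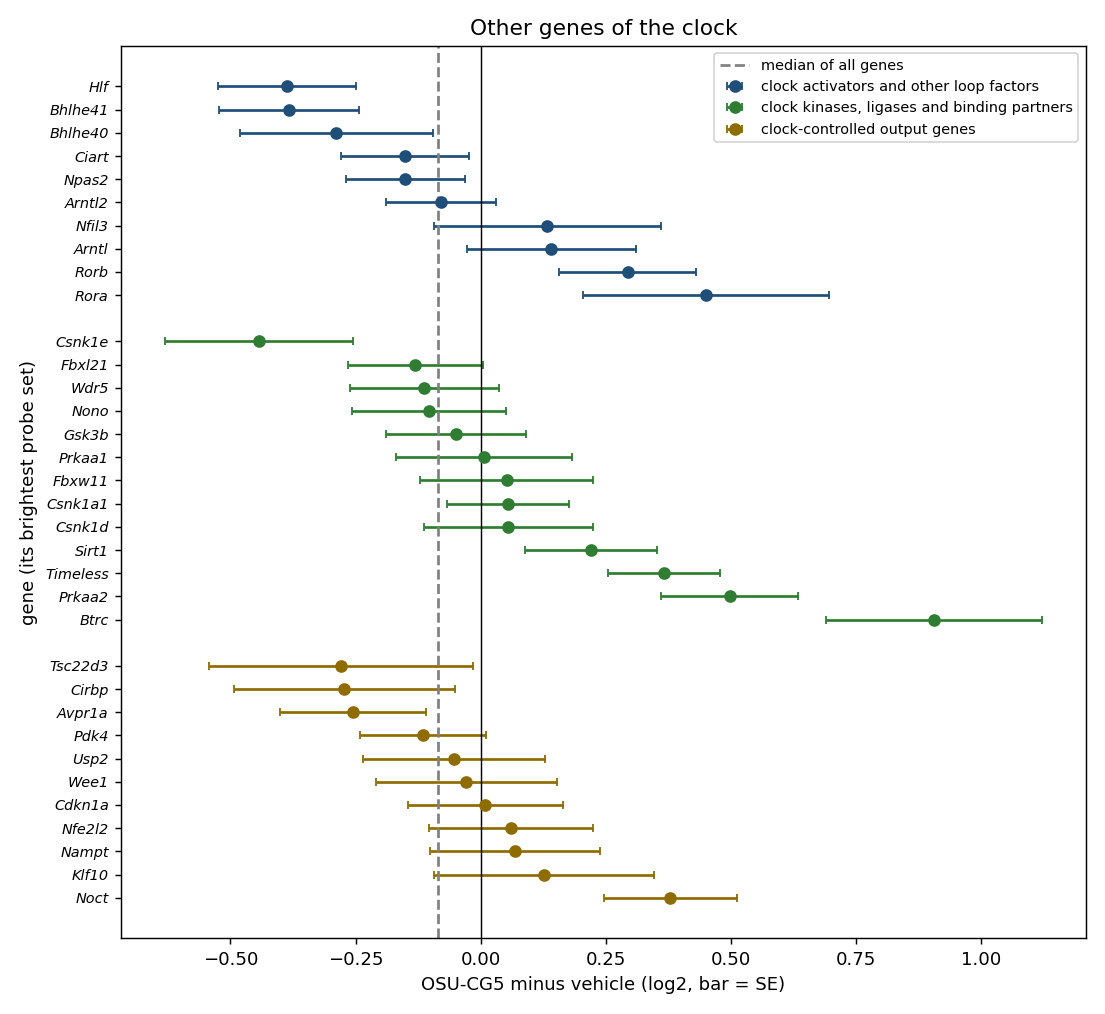
OSU-CG5 minus vehicle (log2, bars are SE) for the brightest probe set of other clock genes, coloured by list, with the median of all genes dashed. Btrc at 0.91 is the highest of the 34 genes and Csnk1e at -0.44 the lowest.

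Of 13 output genes 11 were measured, with a median difference of -0.03. Among them 1 was higher and 0 were lower at an unadjusted p under 0.05, against 5.4% and 8.43% of all genes, and 1 of 11 is near that share. That one was Noct, a rhythmic gene for the protein nocturnin, which read 7.67, 7.95 and 7.55 in vehicle and 8.07, 8.12 and 8.11 with OSU-CG5. It was higher on every treated array, by 0.38 (SE 0.13; limma adjusted p = 0.235), and by 0.49 without vehicle replicate 2. Avpr1a, Cirbp and Tsc22d3 differed by -0.26, -0.27 and -0.28, and the last 2 by -0.01 each without that array. Avpr1a, with a mean signal of 3.87, lay near the low end of the scale. Wee1 and Usp2, both with E-box-driven rhythms in liver, differed by -0.03 and -0.05.

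Inputs that can reset the clock through Per1 were described by 2 further lists. Among 10 glucocorticoid receptor targets the median difference was -0.13 beside -0.09 over all genes, with 1 higher and 0 lower at an unadjusted p under 0.05, against 5.4% and 8.43% of all genes. Sgk1, a kinase gene, differed by 0.34 (SE 0.12), Klf9 by 0.26 (SE 0.13), Zbtb16 by -0.21 (SE 0.13) and the metallothionein Mt1 by -0.19 (SE 0.13). Among 10 CREB and immediate early targets the median was -0.18, with 0 higher and 1 lower, which was Fosb at -0.53 (SE 0.11). Both counts are near the shares over all genes. Junb, Ier2 and Nr4a1 differed by -0.38, -0.24 and -0.23. Fosb, with a mean signal of 3.29, lay near the low end of the scale, and Junb was dim at 4.37. These lists share Dusp1, and the first shares Tsc22d3 and Cdkn1a with the output genes.

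Markers of other cells differed between the groups as well. The mean log2 signal of 6 macrophage markers was 7.01 to 7.57 in vehicle and 6.61 to 6.90 with OSU-CG5. For 5 of 6 lymphocyte markers it was 5.81 to 5.84 and 5.53 to 5.65, and for 6 endothelial markers 5.59 to 5.87 and 5.35 to 5.43, so that these 3 did not overlap. It was 5.90 to 6.66 and 4.95 to 5.81 for 6 skeletal muscle markers, also without overlap. It was 9.53 to 9.74 and 9.28 to 9.56 for 6 smooth muscle markers, 9.45 to 9.64 and 9.04 to 9.73 for 6 fibroblast markers, and 3.84 to 4.15 and 3.62 to 4.54 for 4 of 5 adipocyte markers, which overlapped. Their part in the lower Dbp and higher Per3 signals was not tested.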

How the data were processed

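The deposited values were log2 expression values per probe set, made by the authors with RMA, per the submitters' processing notes. Which program ran it is not given in the sources used here. RMA gives arrays a like distribution, so a broad shift is partly removed. Each array was assigned by its tissue source label, and replicate numbers only name mice. Probe sets were named from the platform annotation, without 64 Affymetrix controls. OSU-CG5 was compared with vehicle by limma (version 3.58.1 in R 4.3.3; lmFit, then eBayes) on all 45037 unfiltered probe sets, adjusted by Benjamini-Hochberg at 0.05. The same fit was run on brighter-minus-dimmer values of genes with 2 or more probe sets. Signals of different probe sets are not comparable as levels. The number of arrays limits the precision. The procedure was tested on simulated data. Members and lists were chosen with earlier results of these data known. The text names every clock probe set that is its gene's brightest, has an unadjusted p under 0.05 or differs by 1 or more, Arntl and Npas2, and up to 4 genes per list with the smallest p; other genes and probe sets given were chosen after their values were seen.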

Additional observations from a re-analysis of the deposited data

How the results depend on the processing

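Of the 18 named clock probe sets, 0 changed sign when arrays were centred on their median or renormalised by cyclic loess. The adjusted count over all probe sets was 822 with array quality weights, where Per3 1458176_at (limma adjusted p = 0.0207) and 1442243_at (adjusted p = 0.0446) were among them. It ranged from 0 to 885 with single arrays left out, 885 without vehicle replicate 3, where Per3 1458176_at passed (adjusted p = 0.0329), and 400 without vehicle replicate 2. Over all alternatives the adjusted p of 1458176_at ranged from 0.0207 to 0.457. Clock probe sets higher at an unadjusted p under 0.05 numbered 4 with no moderation and 3 with 1 probe set per gene, and 4 to 9 with single arrays left out (4 without OSU-CG5 replicate 2 or 3). Lower ones numbered 1 with a minimum mean of log2 6, 2 with cyclic loess, 0 with no moderation, 1 with 1 probe set per gene, and 1 to 4 with single arrays left out (1 without OSU-CG5 replicate 1 or vehicle replicate 1). With 1 probe set per gene, 3 of the 10 clock probe sets were higher without overlap, against 1474 of 18193 genes. Non-overlapping higher probe sets numbered 7 to 12 with single arrays left out. The 12 were without vehicle replicate 2, where 16.7% of all probe sets were higher without overlap. Non-overlapping lower ones numbered 1 with that minimum and 3 to 6 with single arrays left out (6 without vehicle replicate 3, 5 without OSU-CG5 replicate 1). With 1 probe set per gene, 1 of the 10 was lower without overlap, against 2576 of 18193 genes. For the other clock counts in this paragraph no share over all probe sets was counted, so they are not read as a result about clock genes. The clock median was 0.36 with a minimum mean of log2 6 and 0.0031 to 0.20 with single arrays left out. List medians moved to -0.036 for loop factors with cyclic loess, and for CREB targets to -0.12 with that minimum and -0.084 with all probe sets. With single arrays left out they ran from -0.14 to -0.050 for loop factors, -0.033 to 0.12 for kinases and partners, -0.12 to 0.075 for outputs, -0.16 to -0.0025 for glucocorticoid targets and -0.29 to -0.073 for CREB targets. Brighter-minus-dimmer calls over all genes ran from 0 to 20, with 20 without vehicle replicate 3 and 1 without OSU-CG5 replicate 3.

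Against the second brightest instead of the dimmest probe set, the difference was 0.20 for Per2 (limma unadjusted p = 0.182), -0.64 for Per3, -0.63 for Tef and 0.21 for Clock. Against the dimmest these values were 0.75, 0.94, 0.22 and -0.55, so that the sign turned for Per3, Tef and Clock. With a minimum mean of log2 6 the brighter-minus-dimmer difference was 0.28 for Per3 (limma unadjusted p = 0.302) and -0.63 for Tef. For Nr1d2 it ran from -0.00044 without vehicle replicate 2 to 0.58 without vehicle replicate 1. The sign of small differences turned with single arrays left out. Cry1 differed by -0.020 without OSU-CG5 replicate 3, -0.020 without vehicle replicate 1, -0.091 without vehicle replicate 3 and 0.21 without vehicle replicate 2. Cry2 differed by -0.0019, -0.022, -0.029 and 0.16 without the same arrays. Nr1d1 differed by 0.18 without vehicle replicate 2 and by -0.071, -0.056 and -0.086 without OSU-CG5 replicate 1, vehicle replicate 1 and vehicle replicate 3. The brightest Tef probe set differed by -0.12 without vehicle replicate 3 and 0.019 without vehicle replicate 2. Where a filter or 1 probe set per gene lowered a count, fewer probe sets were tested. Leaving out an array can only keep or raise a count of non-overlapping probe sets. For the other changes the cause was not tested. No paired analysis was possible because the labels give no shared replicate numbers.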
